A study of Homo sapiens with 9 samples.

Results

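NEAT1 and MALAT1, a pair of neighbouring long noncoding RNAs of the nucleus, were examined together with 6 proteins that belong to the bodies NEAT1 builds or to the choice of its end. The 8 genes were SFPQ, NONO, PSPC1, RBM14, CPSF6 and NUDT21 besides the pair of RNAs, out of 24344 genes in the count table and 14195 genes tested, and all 8 passed the filter on low counts. They were chosen by name with earlier results of these libraries known, NEAT1 because it was among the largest rises of Kushen over Baituling. Their differences between treatments are therefore given as a description, without a test. RNA came from the established line MDA-MB-231, grown from a human breast adenocarcinoma, after 48 h with 1 of 3 injections in the same culture medium. CKI (Compound Kushen Injection, combining extracts of the herbs Kushen and Baituling) was used at 2.0 mg/mL, and the single-herb Kushen injection and Baituling injection were brought to an equivalent dilution. Each treatment had 3 libraries from 1 cell line. Untreated cells were not analysed here, so every difference below is between injections.

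NEAT1 is the architectural RNA of paraspeckles, ribonucleoprotein bodies that form in the nuclei of mammalian cells next to the gene itself. A short, polyadenylated form and a long form share their start, and only the long form seeds the body. SFPQ, NONO and PSPC1 are the DBHS (Drosophila behaviour, human splicing) RNA-binding proteins that coat the long form, and RBM14 is a prion-like protein of the body. CPSF6 and NUDT21 are subunits of cleavage factor Im, which binds UGUA elements and favours the short form. MALAT1 lies in nuclear speckles, bodies rich in splicing factors, and both RNAs are widely studied in breast and other cancers.

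Sequence at the ends of the RNAs is shown first because cleavage factor Im acts at the short form end of NEAT1, and because the long form and MALAT1 share an unusual tailless end. All positions are on GRCh37, the same assembly as hg19. NEAT1 (ENSG00000245532) spans chr11:65190245-65213011 on the plus strand as a long noncoding RNA gene with a single uninterrupted exonic stretch of 22767 bases. MALAT1 (ENSG00000251562) follows 52099 bases after its end on the same strand, at chr11:65265111-65275544. The final 200 bases of the annotated short form of NEAT1, exonic and internal to the long form, lie at chr11:65193785-65193984. Capitals mark TGTA, the DNA spelling of the element bound by cleavage factor Im, and AATAAA, the polyadenylation signal.
NEAT1 short form end: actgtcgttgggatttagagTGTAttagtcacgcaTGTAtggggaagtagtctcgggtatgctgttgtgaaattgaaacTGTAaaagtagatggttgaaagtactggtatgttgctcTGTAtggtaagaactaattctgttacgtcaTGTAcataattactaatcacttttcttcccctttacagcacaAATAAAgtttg
This window held TGTA 5 times and AATAAA 1 time on the transcribed strand. At least 5 copies of TGTA were found in 3.07% of 19761 protein-coding genes and in 0.979% of 18497 long noncoding RNA genes, taking the last 200 bases of the longest transcript of each. AATAAA stood in 66.4% and 42.9% of the same windows.

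The long form of NEAT1 and MALAT1 end without a poly(A) tail, since RNase P cuts before a transfer RNA-like fold and an A-rich tract closes a triple helix over the new end. Capitals in the following lines mark AAAGCAAAA, the last bases of that tract, and GTTCNANTC, the pattern that stands for the T loop of a transfer RNA. The NEAT1 stretch is chr11:65212963-65213068 and the MALAT1 stretch is chr11:65273539-65273643, both on the plus strand.
NEAT1 3 prime end: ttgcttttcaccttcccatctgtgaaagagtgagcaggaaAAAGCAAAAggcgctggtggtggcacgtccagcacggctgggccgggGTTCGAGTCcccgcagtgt
MALAT1 3 prime end: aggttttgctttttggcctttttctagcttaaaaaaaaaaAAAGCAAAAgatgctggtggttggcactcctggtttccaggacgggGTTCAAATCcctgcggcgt
Of the 12 bases that follow the tract, 10 were identical between the RNAs. Both patterns in this order, at most 70 bases apart on the transcribed strand, were found in 5 of 903 long noncoding RNA genes of chromosome 11, or 0.554%, with 100 bases added after each gene end. NEAT1 and MALAT1 are themselves among the 5. The search covered each whole gene and not its end alone. The counts in the table are per gene, so reads of the short and long forms of NEAT1 were summed and neither form could be measured alone.

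NEAT1 was far more abundant after CKI and Kushen than after Baituling, and MALAT1 differed the same way by a smaller amount. NEAT1 stood at 1114, 1010 and 708 CPM (counts per 1000000 of the TMM-scaled library size) in CKI replicates 1, 2 and 3, at 1311, 682 and 1039 CPM in Kushen, and at 56.5, 73.2 and 74.8 CPM in Baituling. All 6 libraries of CKI and Kushen lay above all 3 of Baituling, while CKI and Kushen overlapped. The raw counts behind these values were 16616 to 32595 in CKI and Kushen and 1159 to 1354 in Baituling. The fitted log2 fold change was 3.79 ± 0.19 (SE) for CKI against Baituling, a 13.9-fold difference. For Kushen against Baituling it was 3.89 ± 0.19, a 14.9-fold difference, and for CKI against Kushen it was -0.10 ± 0.17. CKI against Baituling and Kushen against Baituling use the same 3 Baituling libraries, so their values are given side by side and are not separate evidence. The libraries are bulk RNA, so more RNA per cell and more cells rich in it cannot be told apart.

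MALAT1 was measured at 705, 566 and 333 CPM in CKI, at 688, 344 and 505 CPM in Kushen, and at 74.6, 67.9 and 83.1 CPM in Baituling. As for NEAT1, the 6 libraries of CKI and Kushen lay apart from those of Baituling and overlapped each other. The log2 fold change was 2.83 ± 0.22 for CKI against Baituling, 2.77 ± 0.22 for Kushen against Baituling and 0.06 ± 0.20 for CKI against Kushen. Libraries were unstranded, and MALAT1 is overlapped on the opposite strand by TALAM1, so reads of that antisense RNA could not be told apart from it. NEAT1 took 0.070% to 0.137% of the counts of a CKI or Kushen library and MALAT1 0.035% to 0.077%, against 0.0050% to 0.0067% and 0.0061% to 0.0075% in Baituling.

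The balance between the RNAs differed as well. NEAT1 had 1.58, 1.78 and 2.12 counts for each MALAT1 count in CKI, and 1.91, 1.98 and 2.06 in Kushen. The ratio was 0.758, 1.08 and 0.900 in Baituling, below every library of the other groups. This ratio is taken within a library, so it does not depend on scaling between libraries. NEAT1 was chosen for its large rise of Kushen over Baituling, so the ratio draws on the values behind that choice and is only a description.

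**Figure D1:**
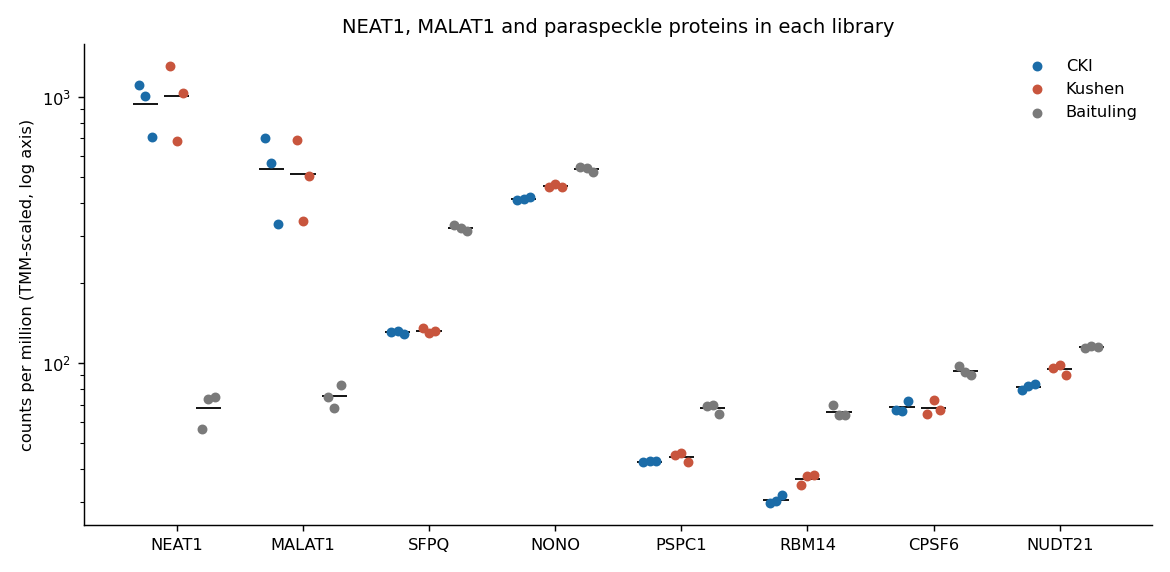
Level of each gene in CPM (vertical log axis) in the 3 libraries of CKI, Kushen and Baituling, with a line at the group mean. NEAT1 and MALAT1 lie at 333 to 1311 CPM in CKI and Kushen and at 56.5 to 83.1 CPM in Baituling, and the transcripts of all 6 proteins are highest in Baituling on this scale.

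On the TMM scale the transcripts of the DBHS proteins were lower in the groups where NEAT1 was higher. SFPQ (chr1:35641979-35659047, minus strand), which is required for paraspeckle formation, stood at 132, 132 and 129 CPM in CKI, at 135, 130 and 132 CPM in Kushen and at 330, 323 and 314 CPM in Baituling. Its Baituling libraries lay above all others without overlap. The log2 fold change of SFPQ was -1.30 ± 0.04 for CKI against Baituling, -1.28 ± 0.04 for Kushen against Baituling and -0.02 ± 0.04 for CKI against Kushen.

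NONO (chrX:70474664-70521372, plus strand), the usual partner of SFPQ, had the most abundant transcript of the 6 proteins, per kilobase of exon as well, with 410, 415 and 420 CPM in CKI, 460, 471 and 460 CPM in Kushen and 549, 540 and 524 CPM in Baituling. The 3 groups did not overlap for NONO. Its log2 fold change was -0.37 ± 0.04 for CKI against Baituling, -0.21 ± 0.04 for Kushen against Baituling and -0.16 ± 0.04 for CKI against Kushen. These sizes depended on scaling: with library totals in place of TMM they were -0.09, -0.001 and -0.09. NONO overlaps ZMYM3 on the opposite strand.

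PSPC1 (chr13:20248892-20357159, minus strand) was the least abundant DBHS transcript, per kilobase of exon as well. It was at 42.6, 42.8 and 42.9 CPM in CKI, at 45.1, 46.2 and 42.5 CPM in Kushen and at 69.3, 69.9 and 64.3 CPM in Baituling. CKI and Kushen overlapped, and both lay under Baituling. Its log2 fold change was -0.67 ± 0.05 for CKI against Baituling and -0.61 ± 0.05 for Kushen against Baituling, so within the DBHS family SFPQ differed most and NONO least. The differences of PSPC1 were -0.38 and -0.39 with library totals. PSPC1 overlaps PSPC1-AS2 on the opposite strand.

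RBM14 (chr11:66384097-66397405, plus strand) was separated in all 3 comparisons. It stood at 29.9, 30.3 and 32.0 CPM in CKI, at 35.0, 37.7 and 38.0 CPM in Kushen and at 69.8, 63.9 and 63.8 CPM in Baituling. The log2 fold change was -1.10 ± 0.06 for CKI against Baituling, -0.84 ± 0.06 for Kushen against Baituling and -0.26 ± 0.06 for CKI against Kushen. With library totals the first of these was -0.81, inside the fold threshold. RBM14 shares sequence with a readthrough transcript into RBM4, and how the authors' counting divided such reads is not given in the sources used here.

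The cleavage factor Im subunits, whose recognition letters are capitalised in the short form end above, had transcripts modestly lower in CKI and Kushen. CPSF6 (chr12:69633349-69668138, plus strand) was at 67.0, 66.4 and 72.3 CPM in CKI, 64.5, 72.7 and 66.5 CPM in Kushen and 97.4, 93.1 and 90.4 CPM in Baituling. CKI and Kushen overlapped, and Baituling lay above both. NUDT21 (chr16:56463045-56486111, minus strand), the subunit that reads UGUA, was at 79.1, 81.9 and 83.3 CPM in CKI, 95.8, 98.8 and 90.6 CPM in Kushen and 114, 116 and 116 CPM in Baituling, with no overlap among the groups.

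The log2 fold change of CPSF6 was -0.45 ± 0.05 for CKI against Baituling, -0.46 ± 0.05 for Kushen against Baituling and 0.01 ± 0.05 for CKI against Kushen. The values of NUDT21 in the same order were -0.50 ± 0.05, -0.28 ± 0.04 and -0.22 ± 0.04. With library totals the differences from Baituling were -0.16 and -0.25 for CPSF6 and -0.21 and -0.06 for NUDT21. NUDT21 overlaps OGFOD1 on the opposite strand.

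**Figure D2:**
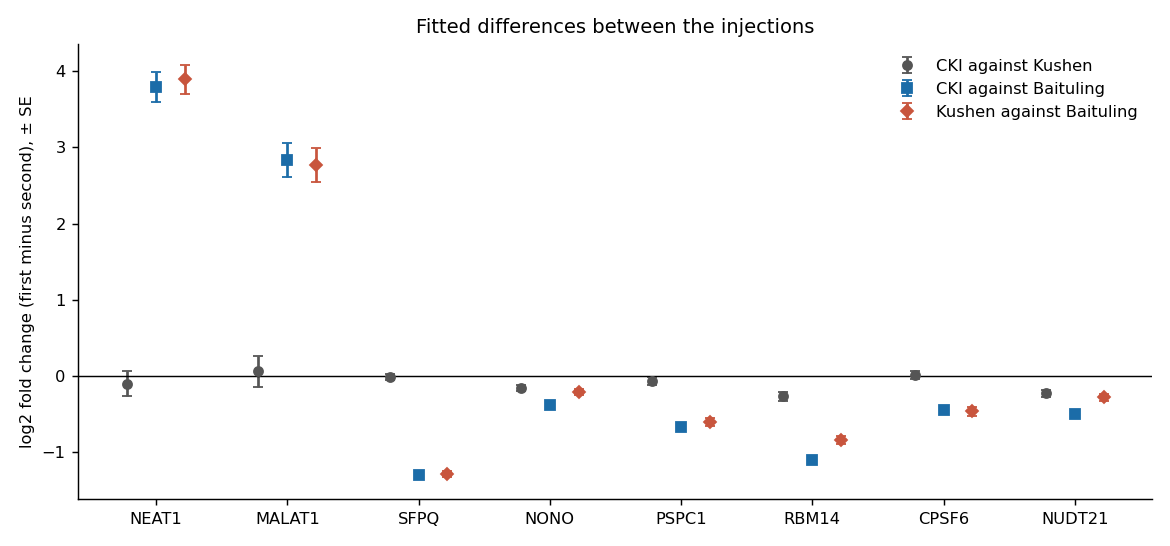
Fitted log2 fold change of each gene (first treatment minus second) with its SE for the 3 comparisons. NEAT1 and MALAT1 lie at 2.77 to 3.89 against Baituling, the 6 proteins at -1.30 to -0.21, and all 8 genes between -0.26 and 0.06 in CKI against Kushen.

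Counted at the threshold of the study (edgeR adjusted p under 0.05 and a log2 fold change beyond 1 in either direction), 2 members were higher and 2 lower in CKI against Baituling, where 19.1% of all tested genes were called. In Kushen against Baituling 2 were higher and 1 lower, where 15.2% were called, and in CKI against Kushen none of the 8 were by edgeR or by DESeq2, where 1.90% were called. The libraries of the groups did not overlap for all 8 members in either comparison with Baituling, beside 78.3% (CKI) and 73.1% (Kushen) of all genes. In CKI against Kushen this held for 3 members, NONO, RBM14 and NUDT21, beside 49.5% of all genes. Since the members were chosen with these comparisons known, nothing is read from the counts.

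Levels between genes can be compared per kilobase of exonic length. After Baituling, NONO led at 47.9 ± 1.1 CPM per kb (SD, n = 3), followed by SFPQ at 41.7 ± 1.0, NUDT21, PSPC1, CPSF6, RBM14 and MALAT1, and NEAT1 was last at 2.99 ± 0.44. No neighbours in that order overlapped. After CKI the order opened with MALAT1 at 51.3 ± 18.0, NEAT1 at 41.5 ± 9.3 and NONO at 37.0 ± 0.5 CPM per kb. After Kushen it opened with the same 3 genes, at 49.1 ± 16.5, 44.4 ± 13.9 and 41.3 ± 0.6 CPM per kb. In both groups the libraries of MALAT1 and NEAT1, of NEAT1 and NONO, and of PSPC1 and CPSF6 overlapped, so the order within those pairs was not resolved. Length over all annotated exons divides NEAT1 by the long form, which lowers its value where the short form supplies the reads. MALAT1 was likewise divided by 10434 bases, while many of its annotated transcripts are shorter, some of 7425 bases. The orders therefore hold only for the lengths used.

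The RNAs also stood apart from the proteins in how much replicates differed. Over the 9 libraries the within-group SD of log2 CPM (6 degrees of freedom) was 0.36 for NEAT1 and 0.44 for MALAT1. Of 10070 genes averaging at least 3 on the log2 CPM scale, NEAT1 had a larger SD than 10066 and MALAT1 than 10068, and the median of these genes was 0.07. The proteins ran from 0.02 for NONO and 0.03 for SFPQ, with SDs above only 140 and 338 of the 10070 genes, to 0.07 for CPSF6. Within CKI, replicate 3 was lowest for both RNAs, with log2 deviations from the group mean of -0.389 for NEAT1 and -0.615 for MALAT1. Within Kushen, replicate 2 was lowest, at -0.517 for NEAT1 and -0.518 for MALAT1, and replicate 1 highest, at 0.427 and 0.483.

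The same order of replicates within CKI (1 over 2 over 3) and within Kushen (1 over 3 over 2) was kept by MALAT1 and by none of the 6 proteins. It was found in 300 of 10062 other genes at that level, or 2.98%. Among the 11 of them whose within-group SD was at least 0.3, 5 had it. What those libraries share beyond this order was not tested.

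The genes nearest to NEAT1 in their deviations from group means, by root mean square difference over 9 libraries, were YJEFN3 (0.08), GABBR1 (0.09), DNHD1 (0.09), LTB4R (0.09) and THBS3 (0.09). MALAT1 was 29th in that order at 0.16. Those nearest to MALAT1 were THBS3 (0.12), YJEFN3 (0.13), MAMDC4 (0.14), TTLL3 (0.16) and FER1L4 (0.16), with NEAT1 6th. YJEFN3 was at 14.4, 12.8 and 9.28 CPM in CKI, 18.3, 8.98 and 15.1 CPM in Kushen, and 4.05, 4.33 and 5.13 CPM in Baituling. THBS3, a thrombospondin gene, was at 11.9, 10.4 and 6.95 CPM, 17.7, 11 and 14.8 CPM, and 7.02, 7.51 and 8.50 CPM in the same order. Both had their lowest CKI value in replicate 3 and their lowest Kushen value in replicate 2, as NEAT1 and MALAT1 did. YJEFN3 and THBS3 were picked for likeness in these same deviations, so the shared low replicates follow from the choice.

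**Figure D3:**
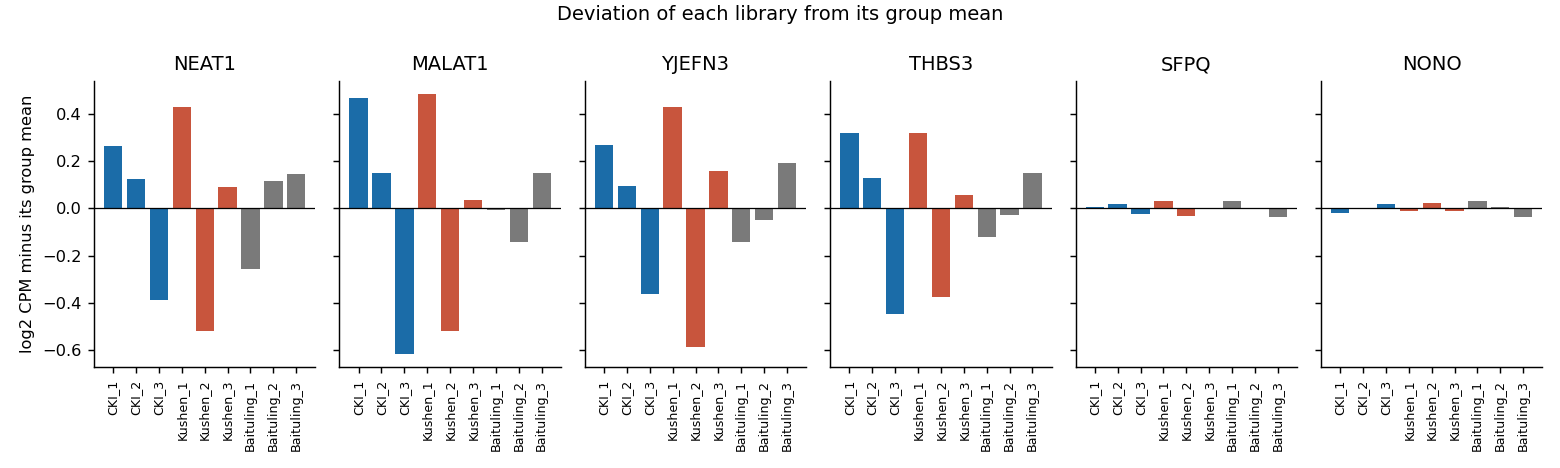
Deviation of log2 CPM from the group mean in each library for NEAT1, MALAT1, the genes YJEFN3 and THBS3 and the proteins SFPQ and NONO. The first 4 genes are lowest in CKI replicate 3 (-0.615 to -0.363) and Kushen replicate 2 (-0.587 to -0.375), while SFPQ and NONO stay between -0.04 and 0.03. YJEFN3 and THBS3 were picked for likeness in these deviations.

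By the whole profile over the 9 libraries (centred log2 CPM), the genes most like NEAT1 were ANGPTL4, a secreted inhibitor of lipoprotein lipase, at a root mean square distance of 0.48, HSD11B1, which regenerates active glucocorticoid, at 0.52, MALAT1 at 0.53, the microRNA host gene MIR23AHG at 0.57 and AKR1C3 at 0.58. Those most like MALAT1 were FER1L4 at 0.22, HES7 at 0.31, EML6 at 0.33, MRNIP at 0.34 and MIR23AHG at 0.36. The log2 fold change of ANGPTL4 was 3.23 for CKI against Baituling and that of FER1L4 was 2.48, beside 3.79 and 2.83 for NEAT1 and MALAT1. ANGPTL4 and FER1L4 were picked for likeness of profile, so near values follow from the choice.

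NEAT1 and MALAT1 were compared with the annotated long noncoding RNAs, a grouping added after the data were seen. Of 775 such RNAs tested, 8 had a larger log2 fold change than NEAT1 in Kushen against Baituling and 13 in CKI against Baituling, and 21 and 36 exceeded MALAT1. NEAT1 was chosen for its large rise of Kushen over Baituling, so its high rank there follows from the choice. The CKI comparison uses the same Baituling libraries. The median long noncoding RNA was at 0.54 and 0.74 in these comparisons, beside 0.02 and 0.03 over all genes and -0.003 and 0.005 over protein-coding genes. In CKI against Baituling 300 of the 775 (38.7%) were called higher and 38 lower, whereas 9.32% of 13157 protein-coding genes were called higher. The filter kept 775 of 3348 long noncoding RNAs and 13157 of 18717 protein-coding genes. A gene with low counts can pass it through its higher group alone, so these shares are not alike in what was tested. With library totals the CKI against Baituling medians were 1.02 for long noncoding RNAs and 0.29 for protein-coding genes. In Kushen against Baituling they were 0.75 and 0.21. By mean log2 CPM over all libraries NEAT1 was 2nd and MALAT1 4th among the long noncoding RNAs, in a list led by NORAD.

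Among other nuclear long noncoding RNAs, 11 of 14 listed were in the table and 8 were tested. In CKI against Baituling 4 were higher past the 0.05 threshold (edgeR quasi-likelihood test with Benjamini-Hochberg adjustment over all genes, used throughout), 3 were lower and 1 did not pass. KCNQ1OT1, an imprinted antisense RNA that silences its locus, rose by 2.97 ± 0.30 on the log2 scale (adjusted p = 2.14e-08), and LINC-PINT rose by 2.25 ± 0.12 (adjusted p = 1.78e-12). FTX, from the X-inactivation centre, rose by 1.16 ± 0.24 (adjusted p = 0.000253). KCNQ1OT1 and FTX had means of only 0.556 and 0.90 CPM in Baituling, beside 4.32 and 2.01 CPM in CKI. At such levels a gene can pass the filter through its higher group alone, so nothing is read from their directions. GAS5 and SNHG1, small nucleolar RNA host transcripts, were lower at -0.53 ± 0.05 (adjusted p = 3.53e-08) and -0.61 ± 0.08 (adjusted p = 4.63e-07), and DLEU2 at -0.59 ± 0.12 (adjusted p = 0.000119). With library totals GAS5, SNHG1 and DLEU2 were at -0.24, -0.32 and -0.31 in this comparison. In Kushen against Baituling 3 were higher and 3 lower, KCNQ1OT1 at 2.04 ± 0.33 (adjusted p = 1.68e-05) and DLEU2 at -1.42 ± 0.13 (adjusted p = 5.68e-09). In CKI against Kushen 4 were higher and 1 lower, led by LINC-PINT at 1.04 ± 0.10 (adjusted p = 1.56e-07).

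Beyond the 6 member proteins, 36 further proteins reported in paraspeckles were listed, of which 35 were in the table and 34 were tested. In CKI against Baituling 24 were lower and 6 higher past an adjusted p of 0.05, and in Kushen against Baituling 26 were lower and 6 higher. Of all genes, 37.0% were lower and 39.1% higher in the first comparison, and 36.1% lower and 35.6% higher in the second. The median log2 fold change of the list was -0.40 and -0.35, beside 0.03 and 0.02 over all genes. With library totals the counts were 17 lower and 11 higher in the first comparison and 18 lower and 6 higher in the second, and the medians -0.11 and -0.14.

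RBM3, a cold-inducible RNA-binding protein, differed most, with a mean of 85.1 ± 0.4 CPM after CKI, 138 ± 9 after Kushen and 381 ± 18 after Baituling (SD, 3 libraries each). On the log2 scale RBM3 fell by 2.16 ± 0.05 (adjusted p = 1.1e-17) in CKI and 1.47 ± 0.05 (adjusted p = 2.45e-15) in Kushen relative to Baituling. HNRNPA1, a splicing regulator, fell by 1.75 ± 0.04 (adjusted p = 6.11e-18) and 1.28 ± 0.04 (adjusted p = 5.43e-16), and RBMX fell by 1.69 ± 0.04 (adjusted p = 5.76e-17) and 1.27 ± 0.04 (adjusted p = 3.63e-15). These were the 3 listed proteins past the fold threshold in either comparison with Baituling on the TMM scale. CIRBP, the cold-inducible relative of RBM3, fell by 0.94 ± 0.05 (adjusted p = 3.87e-12) and 0.55 ± 0.05 (adjusted p = 1.17e-08).

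DAZAP1, HNRNPH3 and HNRNPK, listed proteins known to be needed for intact paraspeckles, were lower too, as was CPSF7. DAZAP1 was at -0.98 ± 0.04 (adjusted p = 1.56e-13) for CKI against Baituling and -0.90 ± 0.04 (adjusted p = 7.91e-13) for Kushen against Baituling. HNRNPH3 was at -0.81 ± 0.04 (adjusted p = 2.95e-12) and -0.88 ± 0.04 (adjusted p = 1.26e-12). HNRNPK, which opposes cleavage factor Im at the short form end, was at -0.65 ± 0.04 (adjusted p = 6.62e-12) and -0.53 ± 0.04 (adjusted p = 2.33e-10). CPSF7, the third subunit of cleavage factor Im, was at -0.33 ± 0.05 (adjusted p = 2.07e-06) and -0.32 ± 0.05 (adjusted p = 3.51e-06). With library totals HNRNPK was at -0.37 and -0.32 and CPSF7 at -0.04 and -0.11.

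The 6 listed proteins that were higher than in Baituling were ZC3H6, FAM98A, AKAP8L, SS18L1, TOX4 and ZNF24. FAM98A had 0.63 ± 0.05 (adjusted p = 5.31e-10) and 0.68 ± 0.05 (adjusted p = 2.18e-10) in CKI and Kushen. ZC3H6 had 0.71 ± 0.16 (adjusted p = 0.000373) in CKI and 0.998 ± 0.15 (adjusted p = 7.9e-06) in Kushen, at means of 3.09 to 6.15 CPM per group. With library totals ZC3H6 was at 1.21 in Kushen against Baituling, which made 4 listed proteins past the fold threshold there.

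In CKI against Kushen 11 of the 34 were lower and 4 higher, where 20.2% of all genes were lower and 19.6% higher, and none passed the fold threshold by edgeR or DESeq2. At an unadjusted p under 0.05, 12 were lower and 5 higher. The list median was -0.07, beside 0.008 over all genes. RBM3 (-0.70 ± 0.05, adjusted p = 4.68e-09), HNRNPA1 (-0.47 ± 0.04, adjusted p = 2.59e-08), RBMX (-0.41 ± 0.05, adjusted p = 1.05e-06) and CIRBP (-0.38 ± 0.05, adjusted p = 1.28e-05) had the smallest adjusted p. With library totals the split was 6 lower and 10 higher and the median 0.009, so the balance of directions in this comparison turned with the scaling.

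**Figure D4:**
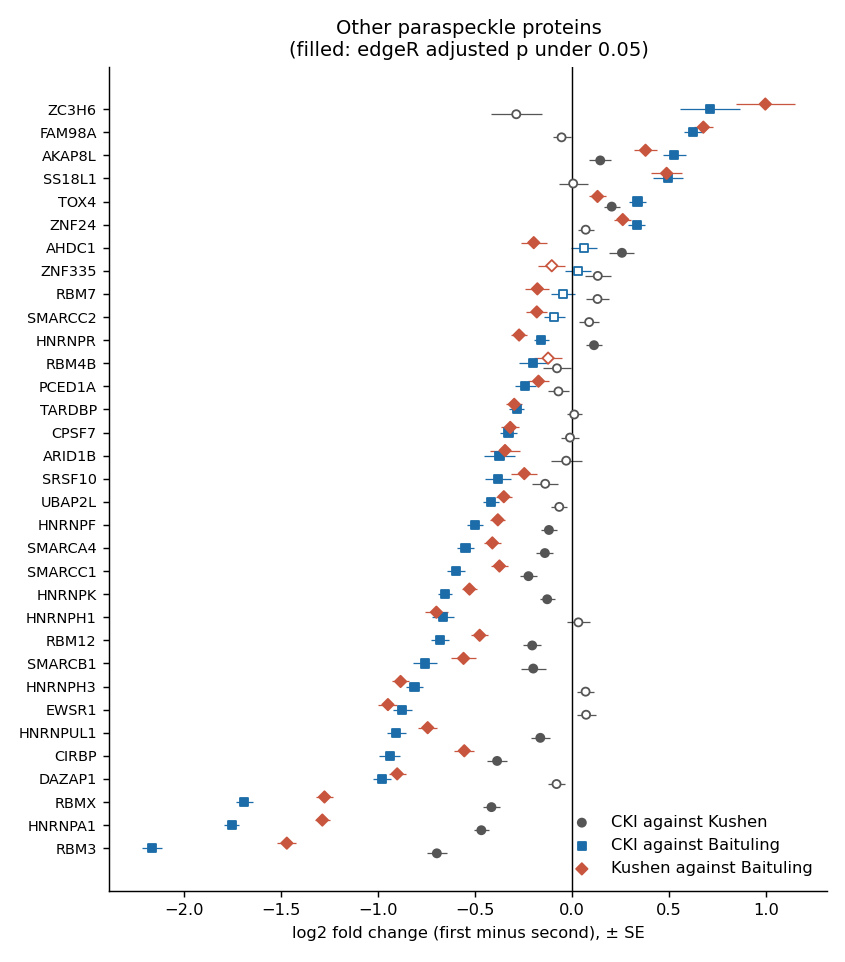
Log2 fold change with SE of 33 of the 34 tested further paraspeckle proteins in the 3 comparisons, ordered by CKI against Baituling, with filled symbols for an edgeR adjusted p under 0.05. Most lie under 0 against Baituling, with RBM3 (-2.16), HNRNPA1 (-1.75) and RBMX (-1.69) farthest in CKI.

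Cleavage and polyadenylation factors outside cleavage factor Im showed a mixed picture. Of 15 tested, 7 were lower and 5 higher in CKI against Baituling, 8 lower and 4 higher in Kushen against Baituling, and 1 lower and 3 higher in CKI against Kushen, with medians of -0.08, -0.13 and 0.007. With library totals the balance turned, to 3 lower and 8 higher in the first and 3 lower and 7 higher in the second. On the TMM scale 37.0% of all genes were lower and 39.1% higher in the first, 36.1% and 35.6% in the second, and 20.2% and 19.6% in the third. CSTF2, which binds downstream of the cleavage site, was at -0.58 ± 0.06 (adjusted p = 6.23e-08) and -0.67 ± 0.06 (adjusted p = 1.07e-08) against Baituling in CKI and Kushen. The scaffold SYMPK was at -0.56 ± 0.05 (adjusted p = 2.97e-09) and -0.20 ± 0.05 (adjusted p = 0.00121), and CSTF1 at -0.45 ± 0.05 (adjusted p = 3.43e-08) and -0.39 ± 0.05 (adjusted p = 3.63e-07). With library totals SYMPK was at -0.27 in CKI and 0.015 in Kushen, on the other side of 0, CSTF1 at -0.17 and -0.18, and CSTF2 at -0.29 and -0.46. The poly(A) polymerase PAPOLA was higher, at 0.37 ± 0.04 in both (adjusted p = 1.3e-07 and 1.66e-07).

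The enzymes that make the tailless end shown above, together with METTL16, which binds the MALAT1 triple helix, counted 12 genes. In CKI against Baituling 6 were lower and 4 higher, in Kushen against Baituling 6 lower and 1 higher, and in CKI against Kushen 1 lower and 2 higher. With library totals the first counts became 2 lower and 6 higher and the second 3 lower and 5 higher. On the TMM scale 37.0% of all genes were lower and 39.1% higher in the first comparison, 36.1% and 35.6% in the second, and 20.2% and 19.6% in the third. ELAC2, the transfer RNA 3′ endonuclease that trims the released fold, was at -0.47 ± 0.05 (adjusted p = 1.62e-08) and -0.35 ± 0.05 (adjusted p = 1.44e-06) against Baituling in CKI and Kushen. With library totals ELAC2 was at -0.19 and -0.14. POP1, the large protein of RNase P, was at -0.80 ± 0.10 (adjusted p = 3.09e-07) and -0.87 ± 0.10 (adjusted p = 1.28e-07). POP5 was higher, at 0.52 ± 0.07 (adjusted p = 6.18e-07) and 0.60 ± 0.07 (adjusted p = 1.04e-07).

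Proteins of nuclear speckles, the bodies in which MALAT1 resides, were mostly lower than in Baituling, with 8 of 12 lower and 3 higher in both CKI and Kushen and medians of -0.56 and -0.57. Over all genes 37.0% were lower and 39.1% higher in CKI, and 36.1% and 35.6% in Kushen. Scaled by library totals the medians were -0.27 and -0.36, with 7 lower and 4 higher in CKI. The splicing factors SRSF3, SRSF1 and SRSF7 passed the fold threshold, at -1.40 ± 0.04 (adjusted p = 2.79e-16), -1.40 ± 0.04 (adjusted p = 5.25e-16) and -1.22 ± 0.05 (adjusted p = 2.47e-14) in CKI against Baituling. In Kushen against Baituling they were at -1.37 ± 0.04 (adjusted p = 7.3e-16), -1.19 ± 0.04 (adjusted p = 7.31e-15) and -1.05 ± 0.05 (adjusted p = 3.36e-13). Under library totals SRSF3 and SRSF1 passed that threshold in CKI, at -1.12 and -1.11, where SRSF7 was at -0.93. In Kushen it was passed by SRSF3 alone, at -1.16, with SRSF1 at -0.98 and SRSF7 at -0.84. The scaffold proteins SON and SRRM2 were higher in CKI than in Baituling, at 0.16 ± 0.05 (adjusted p = 0.00432) and 0.38 ± 0.08 (adjusted p = 0.000305), or 0.44 and 0.67 with library totals. In CKI against Kushen 3 of the 12 were lower and 1 higher, where 20.2% of all genes were lower and 19.6% higher.

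Factors reported to act on NEAT1 transcription went different ways. HIF1A, the hypoxia-inducible factor subunit, was at -0.21 ± 0.04 (adjusted p = 5.84e-05) in CKI against Baituling, 0.50 ± 0.04 (adjusted p = 5.17e-10) in Kushen against Baituling, and at -0.71 ± 0.04 (adjusted p = 8.05e-11) in CKI against Kushen. The first of these was 0.08 with library totals. STAT3 was higher than in Baituling in both CKI and Kushen, at 0.51 ± 0.04 (adjusted p = 9.77e-10) and 0.47 ± 0.04 (adjusted p = 5.51e-09), and ARNT at 0.35 ± 0.05 (adjusted p = 3.85e-06) and 0.15 ± 0.05 (adjusted p = 0.0156). HSF1 was lower, at -0.32 ± 0.05 (adjusted p = 5.11e-06) and -0.37 ± 0.05 (adjusted p = 9.04e-07), which with library totals were -0.03 and -0.16. EPAS1 was at -0.11 ± 0.05 (adjusted p = 0.0677) and -0.16 ± 0.05 (adjusted p = 0.00822), or 0.18 and 0.05 with library totals. These are RNA levels and do not measure the activity of the factors. Of the enzymes that edit adenosine in nuclear RNA, ADARB1 was higher, at 0.71 ± 0.07 (adjusted p = 1.04e-08) and 0.89 ± 0.07 (adjusted p = 4.28e-10), and ADAR was at -0.09 ± 0.04 (adjusted p = 0.0524) and -0.10 ± 0.04 (adjusted p = 0.0279), or 0.20 and 0.11 with library totals.

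The genes around the locus were examined to see whether the difference reached beyond the pair of RNAs. Within 200 kb of the stretch from NEAT1 to MALAT1, 17 other genes were tested, 16 of them protein-coding. In CKI against Baituling 11 were higher and 4 lower, with a median of 0.19 and none as high as MALAT1. Over all genes 39.1% were higher and 37.0% lower. With library totals 13 neighbours were higher and 1 lower, with a median of 0.48. SLC25A45, a mitochondrial carrier gene whose lower coordinate lies 47.6 kb before that of NEAT1, was at 2.04 ± 0.16 (adjusted p = 7.65e-10), FAM89B at 1.36 ± 0.11 (adjusted p = 1.64e-09) and the potassium channel gene KCNK7 at 1.14 ± 0.34 (adjusted p = 0.00464). KCNK7 had means of only 0.859 CPM in CKI and 0.387 CPM in Baituling, where a gene can pass the filter through its higher group alone. FRMD8, whose lower coordinate is the nearest to that of NEAT1 at 36.2 kb before it, was at 0.77 ± 0.05 (adjusted p = 1.25e-10), and CDC42EP2 was lowest at -0.87 ± 0.06 (adjusted p = 2.48e-11).

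In Kushen against Baituling, where NEAT1 and MALAT1 differed as much, 4 neighbours were higher and 8 lower with a median of 0.06 (8 higher and 6 lower with library totals). Over all genes 35.6% were higher and 36.1% lower there. FRMD8 was at 0.07 ± 0.06 there (adjusted p = 0.264) and SLC25A45 at 1.02 ± 0.18 (adjusted p = 4.4e-05). In CKI against Kushen, where the pair of RNAs overlapped between groups, 10 neighbours were higher and none lower past the adjusted p of edgeR, with a median of 0.34. Of all genes 19.6% were higher and 20.2% lower in that comparison. No neighbour was lower at an unadjusted p under 0.05 or by DESeq2 either. FRMD8 (0.70 ± 0.05, adjusted p = 8.65e-09) and SLC25A45 (1.01 ± 0.14, adjusted p = 1.01e-05) were among the 10 higher neighbours.

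**Figure D5:**
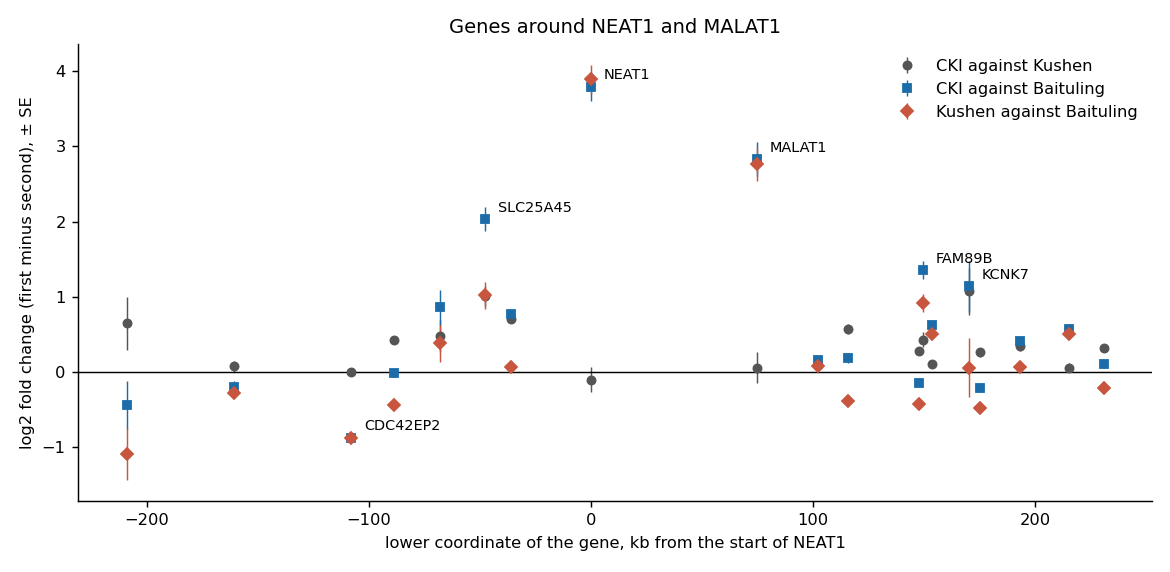
Log2 fold change with SE of NEAT1, MALAT1 and 17 neighbouring genes against the distance of each gene's lower coordinate from the start of NEAT1 in kb. NEAT1 and MALAT1 lie at 2.77 to 3.89 in both comparisons with Baituling, above SLC25A45, the highest neighbour at 2.04.

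RNAs without a poly(A) tail were listed because the kit's way of selecting RNA is not given in the sources used here and the long form of NEAT1 and MALAT1 lack a tail. Of 413 small nuclear, nucleolar and related RNAs in the table, 17 passed the filter, and 4 were higher and 1 lower in CKI against Baituling, 1 higher and 3 lower in Kushen against Baituling and 5 higher and none lower in CKI against Kushen past the adjusted p of edgeR. The counts against Baituling with library totals were 6 higher and 1 lower in CKI and 2 higher and 2 lower in Kushen. No small RNA was lower in CKI than in Kushen at an unadjusted p under 0.05 or by DESeq2. The 4 that were higher in CKI than in Baituling were RNU5E-1 at 2.15 ± 0.61 (adjusted p = 0.0034), RNVU1-15 at 2.09 ± 0.45 (adjusted p = 0.000359), SNORA71C at 1.27 ± 0.32 (adjusted p = 0.00141) and SNORD63 at 1.15 ± 0.50 (adjusted p = 0.0439). Mean CPM in CKI and Baituling was 0.489 and 0.108 for RNU5E-1, 1.79 and 0.737 for SNORA71C, and 0.476 and 0.216 for SNORD63. At such levels a gene can pass the filter through its higher group alone, so nothing is read from these directions. RNVU1-15, a variant U1 RNA, was also the 1 higher in Kushen, at 1.47 ± 0.50 (adjusted p = 0.0128), with group means of 0.992, 0.649 and 0.226 CPM in CKI, Kushen and Baituling. The 1 lower in CKI was SNORA33, at -0.92 ± 0.25 (adjusted p = 0.00246), and it was at -0.76 ± 0.24 (adjusted p = 0.00946) in Kushen. SNORD63 and RN7SK fall outside the rule for naming and were chosen after their values were seen. SNORD3A, the U3 RNA, was at -0.03 ± 0.34 (adjusted p = 0.929) in CKI against Baituling and -3.24 ± 0.54 (adjusted p = 2.4e-05) in Kushen against Baituling. Its group means were 0.69, 0.069 and 0.709 CPM in CKI, Kushen and Baituling, so nothing is read from its direction either. SNORD3B-2, another U3 copy, was at -0.44 ± 0.20 (adjusted p = 0.0567) and -3.28 ± 0.29 (adjusted p = 4.32e-09), and how reads of the copies were divided is uncertain. RN7SK was at 0.27 ± 0.20 (adjusted p = 0.24) and -0.18 ± 0.22 (adjusted p = 0.478). With library totals SNORD3A in CKI and RN7SK in Kushen lay on the other side of 0, at 0.25 and 0.04.

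Of 35 replication-dependent histone genes, 16 were tested, and 12 were higher and 2 lower in CKI against Baituling, with a median of 1.79, 9 higher and 3 lower in Kushen against Baituling, with a median of 0.91, and 13 higher and none lower in CKI against Kushen by edgeR, with a median of 1.24. None was lower there by DESeq2 or at an unadjusted p under 0.05. H1-2 rose by 4.13 ± 0.06 (adjusted p = 7.19e-21) in CKI against Baituling, and H2AC20 fell by 2.93 ± 0.28 (adjusted p = 1.14e-08). H2AC20 had means of only 0.318 CPM in CKI and 2.46 CPM in Baituling, and H4C3, the other lower gene, 0.278 and 1.11 CPM. H4C16, among those higher, had 0.951 and 0.393 CPM. At such levels a gene can pass the filter through its higher group alone, so nothing is read from the directions of such genes. In CKI against Kushen 3 of the 16 did not pass, and NEAT1 and MALAT1 were at -0.10 and 0.06. Counts per gene do not show whether the histone reads came from transcripts without a tail. The part of RNA selection in the levels of NEAT1 and MALAT1 was not tested.

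Total counts were 20144628 to 23782071 per library and TMM factors 0.877 to 1.099, lowest in Baituling. Library totals in place of TMM shifted the median difference over all genes by 0.08 (CKI against Kushen), 0.29 (CKI against Baituling) and 0.21 (Kushen against Baituling). All changes above are relative to the TMM scale, and under library totals NEAT1 was at 4.08 and 4.11 against Baituling in CKI and Kushen. Markers of the labelled line were present, with VIM at 370 to 1870 CPM of library totals and CD44 at 648 to 812, ESR1 at 0 to 3 counts, PGR at 0 to 4 and CDH1 at 11 to 51. EPCAM at 162 to 280 counts and ERBB2 at 1412 to 2155 were detected as well. Leukocyte markers PTPRC and CD3E had at most 9 counts, and COL1A1 had 285 to 963.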

How the data were processed

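RNA-seq (unstranded, paired-end) covered 9 libraries of MDA-MB-231 cells, 3 for each of CKI, Kushen and Baituling. The members and gene lists were chosen with earlier results of these data known. Per the labels, the authors trimmed reads with Trim Galore 0.3.7 and aligned them with STAR 2.5.3a to hg19. The authors deposited raw counts per gene, whole numbers without normalization. The counting program, annotation and RNA selection are not given in the sources used here. Columns were assigned by treatment initial and replicate number.

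Of 24566 rows, 222 repeated an Ensembl gene with identical counts and were dropped. Genes and positions were named from GENCODE v44 on GRCh37 or RefSeq. filterByExpr (minimum count 10, minimum total 15) in edgeR 4.0.16 and R 4.3.3 kept 14195 genes. Library sizes were scaled by TMM, and treatment was the single term of 1 quasi-likelihood fit (glmQLFit, glmQLFTest) over all 9 libraries. P-values are two-sided, Benjamini-Hochberg adjusted over all genes tested, and calls used an adjusted p under 0.05 and a log2 fold change beyond 1, as in the study. A 3 against 3 exact permutation cannot give a p below 0.1. Whether libraries of a group were separate cultures is not stated, so p-values measure the spread between these libraries. Total counts of 20144628 to 23782071 leave small counting error for the members. Log2 CPM used a prior count of 2, and overlap between groups was judged on CPM.

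Same-numbered libraries of different groups had residual correlations of -0.075 to 0.12 across genes, so the numbers were not taken to pair samples. Replicate pairs differed beyond sampling noise (chi-square per gene 1.70 to 6.85). The rule for naming took the members, the genes of each list with the smallest adjusted p, and the 5 genes nearest to NEAT1 and MALAT1. HNRNPK, DAZAP1, CPSF7 and HNRNPH3 were added whatever their values. All neighbours within 200 kb were counted and plotted, but only some are named. Other named genes fall outside the rule, among them SNORD63, RN7SK, FTX, SON, SRRM2, EPAS1, H4C3, H4C16 and the further paraspeckle proteins higher than in Baituling. Alternatives were other scalings, filters, samples, rows and tools (DESeq2 1.42.0), a replicate block and leaving out each library. The fit was tested on simulated data. TAF15, TUG1, OIP5-AS1, TERC and PECAM1 were not analysed here, and 3 further listed genes are not reported here.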

Additional observations from a re-analysis of the deposited data

How the results depend on the processing

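Alternatives were compared for the folds of the members, the counts of further paraspeckle proteins past an adjusted p of 0.05 by edgeR, the ratio of NEAT1 to MALAT1 and the spread within groups. NEAT1 and MALAT1 kept their direction against Baituling under all alternatives run. The number of further paraspeckle proteins higher in CKI against Kushen was 4, and it was 10 with library totals and 2 with DESeq2, while the number lower was 11 and became 6 with library totals. The number higher in CKI against Baituling was 6 and became 11 with library totals.

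With 1 library left out, NEAT1 ranged from 3.66 to 3.96 for CKI and from 3.66 to 4.11 for Kushen relative to Baituling, and MALAT1 from 2.58 to 3.08 and 2.49 to 2.99. In CKI against Kushen NEAT1 ranged from -0.318 to 0.132 and MALAT1 from -0.188 to 0.333, neither of them called. NEAT1 changed sign without CKI replicate 3 (0.07) or Kushen replicate 1 (0.132), and MALAT1 without CKI replicate 1 (-0.188) or Kushen replicate 2 (-0.159). The number of further proteins higher in that comparison ranged from 2 to 4, with 2 without CKI replicate 1, CKI replicate 2 or Kushen replicate 2. The within-group SD of NEAT1 ranged from 0.28 to 0.396 and that of MALAT1 from 0.345 to 0.482.

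With a replicate block NEAT1 was at 3.77 and 3.86 against Baituling in CKI and Kushen, MALAT1 at 2.79 and 2.73, and the block changed no call of a member. With library totals SFPQ and PSPC1 in CKI against Kushen were at 0.0593 and 0.0139, on the other side of 0. Of the alternative values for folds and SDs of the 6 proteins, 34 moved by more than the within-group SD and 332 did not. Of the small RNAs 17 of 413 passed the filter on low counts, while the members had at least 751 counts in every library.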
